A study of Mus with 21 samples.

Results

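Dbx1 and 7 other homeobox genes that mark domains of progenitor cells in the developing neural tube were followed across 4 genotypes of embryonic mouse brain. The set was Dbx1, Dbx2, Gsx1, Gsx2, Nkx2-1, Nkx6-1, Nkx6-2 and Irx3. They were taken by name from the 55335 genes of the counts table, and all 8 were among the 30552 genes tested. Dbx1 was chosen by its counts, which were known to be higher in Nipbl+/- brains and in double heterozygotes than in WT brains. Its values in those comparisons are therefore a description, without a test. The question was whether the other domain genes share that rise.

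Homeobox genes of this kind encode transcription factors that are switched on in stripes along the dorsal to ventral axis of the neural tube, where neighbouring factors repress each other and so set sharp borders between progenitor domains. Each domain gives rise to its own classes of neurons. Most of these genes are on early in development, in dividing cells that line the ventricles, and in a late embryonic brain their RNA comes from the progenitors that remain and from some of the neurons that keep the factor. In whole brain RNA, fewer cells of a type and less RNA per cell cannot be told apart.

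The libraries were made from poly(A) RNA of whole brains of female E17.5 embryos. There were 5 WT (Wapl+/+ Nipbl+/+), 7 WaplΔ/+, 3 Nipbl+/- and 6 WaplΔ/+ Nipbl+/- libraries, the last called double heterozygotes. Both genes act on cohesin, the ring-shaped complex that holds DNA in loops: binding of the ring to chromatin depends on NIPBL, and its release on WAPL. The WaplΔ allele lacks the promoter and first exons after removal by E2a-Cre and was backcrossed to C57BL/6J. The Nipbl- allele is a null allele made from a floxed one, which in sires with Stra8-icre was recombined in the male germ line, and both alleles are germline changes. A further Nipbl+/- library that the authors excluded was not analysed here.

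Total counts per library ran from 25682566 to 35818767. Wapl stood at 47.2% of the WT mean in WaplΔ/+ brains and at 49.9% in double heterozygotes, and Nipbl at 55.2% in Nipbl+/- brains and 55.4% in double heterozygotes, with no overlap between these groups and WT. Some libraries stood apart by measures other than the members. Nipbl+/- replicate 1 had the lowest summed level of 23 Hox genes, which mark hindbrain and spinal cord, at 33.3 CPM (counts scaled to the library total), against 72.6 to 169 CPM in the other 20 libraries. Counts of mt-Nd3, a mitochondrial gene, were between 52 and 106 in 9 libraries and at most 6 in the other 12, and no Nipbl+/- library was in the high set. Which set a library with a Wapl deletion belonged to followed the order in which its label writes the Wapl alleles. What this order stands for is not given in the sources used here.

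Dbx1 marks progenitors halfway between the dorsal and ventral poles of the neural tube, which give rise to commissural V0 interneurons and to neurons that drive breathing, and in the forebrain it marks a source of Cajal-Retzius neurons. It lies on chromosome 7 of GRCm38 from 49631499 to 49636835. Its normalized count, the count scaled to a common library size, was 44.5, 32.5, 32.4, 34.9 and 40.7 in the WT libraries. In Nipbl+/- libraries it was 153, 60.0 and 88.0. All 3 Nipbl+/- libraries were above all 5 WT libraries, which held for 9.08% of all genes, and they also lay far from each other. The Nipbl+/- mean of 100.3 ± 47.6 (SD, n = 3) was set against a WT mean of 37.0 ± 5.37 (SD, n = 5). On the log2 scale Dbx1 was higher by 1.40 (standard error, SE, 0.229).

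In WaplΔ/+ libraries the normalized count of Dbx1 had a lowest value of 40.3, a median of 61.6 and a highest value of 103. In double heterozygotes these were 48.2, 74.5 and 106. Every double heterozygote was above every WT library, which held for 0.707% of all genes, and 5 of 7 WaplΔ/+ libraries were. The double-heterozygote mean was 76.7 ± 25.6 (SD, n = 6), and the log2 fold change over WT was 1.03 (SE 0.201). The WaplΔ/+ mean was 64.8 ± 23.3 (SD, n = 7), or 175% of WT.

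The WaplΔ/+ comparison did not serve to pick Dbx1, although it shares the WT libraries with those that did. There the log2 fold change was 0.77 (SE 0.210, edgeR adjusted P = 0.0871). P values are from the quasi-likelihood test of edgeR, adjusted over all genes, and a gene was called where the adjusted P was below 0.10. That call was lost when single libraries were left out in 8 of 12 cases, with adjusted P between 0.136 and 0.235 in them, namely without any 1 of the 5 WT libraries or without WaplΔ/+ replicate 1, 4 or 5. It was also lost with all 4 groups in 1 fit (0.78, edgeR adjusted P = 0.204) and with a term for mt-Nd3 (0.82, edgeR adjusted P = 0.106). DESeq2, which sets genes of low mean aside, gave Dbx1 no adjusted P in this comparison. Within the libraries of low mt-Nd3 the log2 fold change of Dbx1 was 0.98 (SE 0.220, edgeR adjusted P = 0.165), and within those of high mt-Nd3 it was 0.66 (SE 0.327, edgeR adjusted P = 0.663). The low set held WaplΔ/+ replicates 1 and 2 and WT replicates 1, 2 and 3, and 47 of all genes were called. The high set held WaplΔ/+ replicates 3 to 7 and WT replicates 4 and 5, and 278 were called. With so few libraries a lost call cannot show that Dbx1 depends on mt-Nd3.

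The spread of Dbx1 within a genotype was larger in number for the mutant groups than for WT. The coefficient of variation was 14.5% in WT, against 16.1% from counting alone, so the WT libraries spread no more than their counts allow. It was 36.05% in WaplΔ/+, 47.5% in Nipbl+/- and 33.4% in double heterozygotes, where counting alone gives 12.6%, 10.1% and 11.5%. Whether this spread differs between genotypes was not tested.

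**Figure D1:**
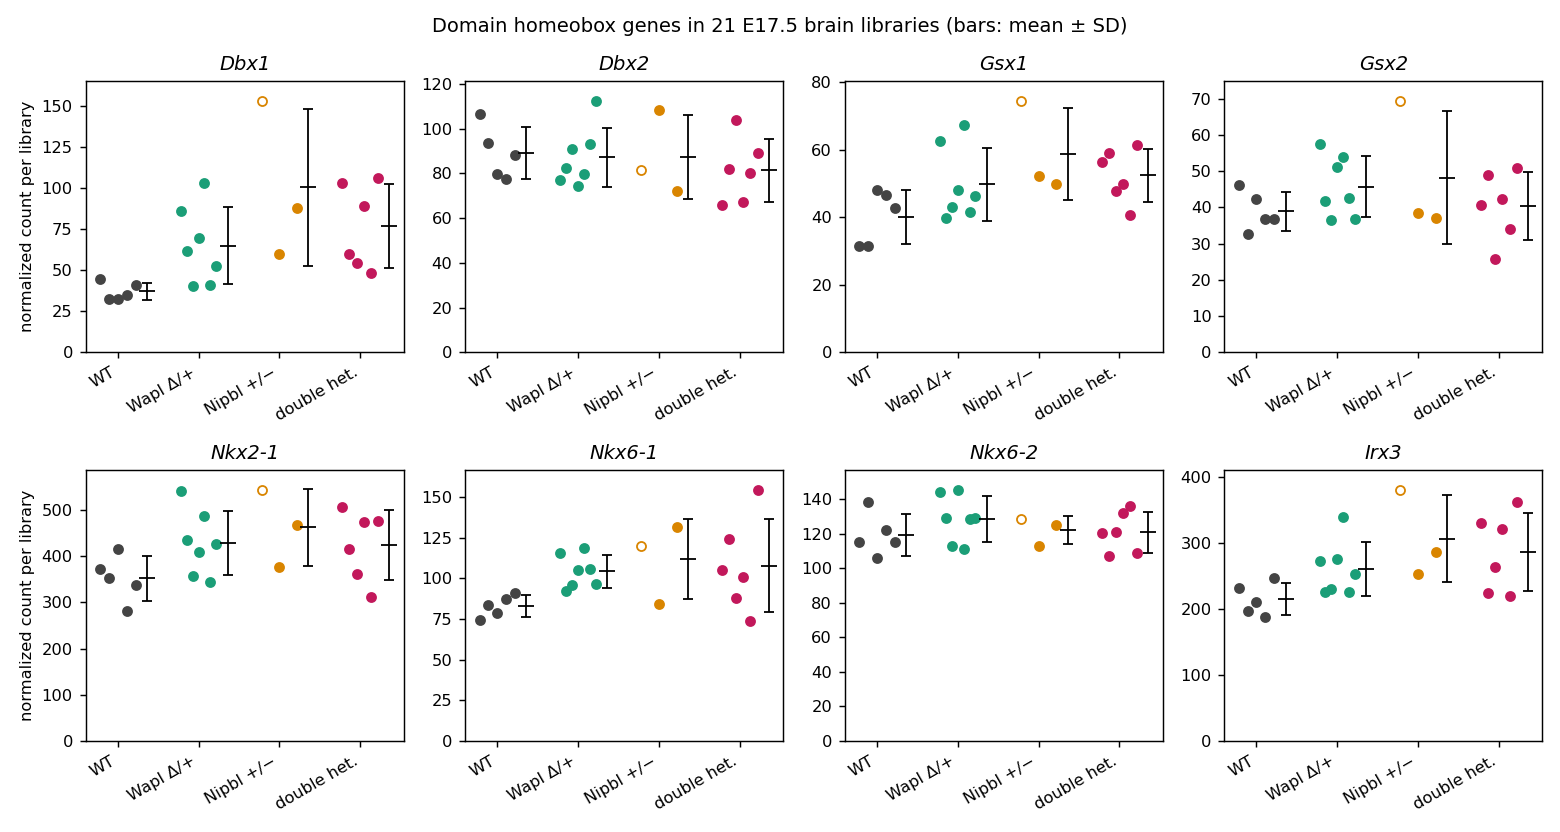
Normalized count of each of the 8 genes in each library (y axis, from 0) by genotype (x axis). Each point is 1 library in the order of its replicate number, the open circle is Nipbl+/- replicate 1, and the bars give the mean ± SD. For Dbx1 the WT libraries lie between 32.4 and 44.5 and the Nipbl+/- libraries between 60.0 and 153, while the groups overlap for Dbx2 and Nkx6-2.

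Dbx2, the closest relative of Dbx1, is on in a wider band of progenitors that includes the Dbx1 domain. It lies on chromosome 15 from 95623563 to 95654771. Its normalized count was 106.5, 93.5, 79.5, 77.6 and 88.2 in WT libraries. In Nipbl+/- libraries it was 81.4, 108 and 72.1. The Nipbl+/- values fell on both sides of the WT range, and the log2 fold change was -0.06 (SE 0.150, edgeR adjusted P = 0.883). In WaplΔ/+ libraries the lowest, median and highest values were 74.2, 82.5 and 112, and in double heterozygotes 66.1, 81.1 and 104. Dbx2 gave no call in any comparison with WT, with a 95% interval of the log2 difference from -0.38 to 0.26 in Nipbl+/-, from -0.29 to 0.20 in WaplΔ/+ and from -0.40 to 0.13 in double heterozygotes. Its gene body overlaps Gm31690, and the strand setting of the counting is not stated, so reads of the 2 genes cannot be told apart.

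Irx3, an Iroquois factor of intermediate and dorsal progenitors that is also on around the thalamus, lies on chromosome 8 from 91798511 to 91801654. Its normalized count was 232, 197, 211, 188 and 247 in WT libraries. In Nipbl+/- libraries it was 381, 253 and 287. All 3 Nipbl+/- libraries were above all WT libraries, replicate 2 only just, which held for 9.08% of all genes. Irx3 was called higher, with a log2 fold change of 0.48 (SE 0.117, edgeR adjusted P = 0.0155). In WaplΔ/+ libraries the lowest, median and highest values were 225, 254 and 339, and in double heterozygotes 220.2, 293 and 362. In both groups 4 libraries were above the WT range and the rest within it. The log2 difference from WT was 0.41 (SE 0.117, edgeR adjusted P = 0.0856) in double heterozygotes, which was called, and 0.26 (SE 0.0967, edgeR adjusted P = 0.201) in WaplΔ/+ brains, which was not.

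Nkx2-1 is a ventral factor of the medial ganglionic eminence, the source of many cortical interneurons, and of the hypothalamus. It lies on chromosome 12 from 56531935 to 56536908. Its normalized count was 372, 353, 415, 281 and 338 in WT libraries and 544, 377 and 469 in Nipbl+/- libraries. Nipbl+/- replicate 2 was within the WT range and the other 2 above it. Nkx2-1 was called higher, with a log2 fold change of 0.36 (SE 0.111, edgeR adjusted P = 0.0504). In WaplΔ/+ libraries the lowest, median and highest values were 345, 426 and 541, and in double heterozygotes 311, 446 and 507. In each of these groups 4 libraries were above the WT range. The log2 fold changes were 0.27 (SE 0.101, edgeR adjusted P = 0.201) and 0.26 (SE 0.109, edgeR adjusted P = 0.282).

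Nkx6-1 marks ventral progenitors that give rise to motor neurons and ventral interneurons, and it stays on in some hindbrain neurons. It lies on chromosome 5 from 101659184 to 101664711. Its normalized count was 74.2, 83.4, 78.5, 87.3 and 91.2 in WT libraries and 119.6, 84.5 and 131 in Nipbl+/- libraries. Replicate 2 was again within the WT range. Nkx6-1 was called higher, with a log2 fold change of 0.40 (SE 0.140, edgeR adjusted P = 0.0952). In WaplΔ/+ libraries the lowest, median and highest values were 92.4, 105 and 119, so all 7 lay above all 5 WT libraries, with a log2 fold change of 0.32 (SE 0.0945, edgeR adjusted P = 0.112) that was not called. Of all genes tested, 1.01% had every WaplΔ/+ library above every WT library. In double heterozygotes the values ran from 73.7 over a median of 103 to 154, with 4 libraries above the WT range and 1 below it, and the log2 fold change was 0.37 (SE 0.147, edgeR adjusted P = 0.257).

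Nkx6-2, the near relative of Nkx6-1 that is also on in oligodendrocytes, lies on chromosome 7 from 139579376 to 139582797. Its normalized count was 115, 138, 106, 122 and 115 in WT libraries and 129, 113 and 125 in Nipbl+/- libraries. All 3 Nipbl+/- values and all 6 double-heterozygote values, from 107 to 136, were within the WT range. In WaplΔ/+ libraries the lowest, median and highest values were 111, 129 and 146. The log2 fold change was 0.01 in Nipbl+/- (95% interval -0.23 to 0.24), 0.10 in WaplΔ/+ (-0.09 to 0.29) and 0.02 in double heterozygotes (-0.18 to 0.22), with no call. The annotation has Nkx6-2 overlap Inpp5a and Gm33031, whose reads cannot be told apart from its own without the strand.

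Gsx1 and Gsx2 are factors of the ganglionic eminences in the forebrain and of dorsal interneuron progenitors further back. Gsx1 lies on chromosome 5 from 147188696 to 147190947, and Gsx2 on the same chromosome from 75075601 to 75077893. The normalized count of Gsx1 was 31.4, 31.5, 48.1, 46.6 and 42.6 in WT libraries and 74.4, 52.1 and 49.8 in Nipbl+/- libraries. The Nipbl+/- libraries were all above the WT libraries, by a narrow margin in replicates 2 and 3, which held for 9.08% of all genes. The log2 fold change was 0.53 (SE 0.186, edgeR adjusted P = 0.0991). Gsx1 ran from 39.7 over a median of 46.2 to 67.4 in WaplΔ/+ libraries and from 40.6 over 53.1 to 61.4 in double heterozygotes. Both groups overlapped WT, and the log2 fold changes were 0.29 (SE 0.162, edgeR adjusted P = 0.395) and 0.38 (SE 0.151, edgeR adjusted P = 0.248).

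For Gsx2 the WT libraries gave 46.3, 32.5, 42.2, 36.9 and 36.7 normalized counts and the Nipbl+/- libraries 69.4, 38.3 and 37.1. Of these, only replicate 1 was above the WT range. Its log2 fold change was 0.28 (SE 0.206, edgeR adjusted P = 0.518), and it was -0.07 without that library. Gsx2 ran from 36.4 over a median of 42.5 to 57.4 in WaplΔ/+ libraries, with a log2 fold change of 0.21, and from 25.7 over 41.6 to 50.8 in double heterozygotes, with one of 0.04. Neither was called.

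**Figure D2:**
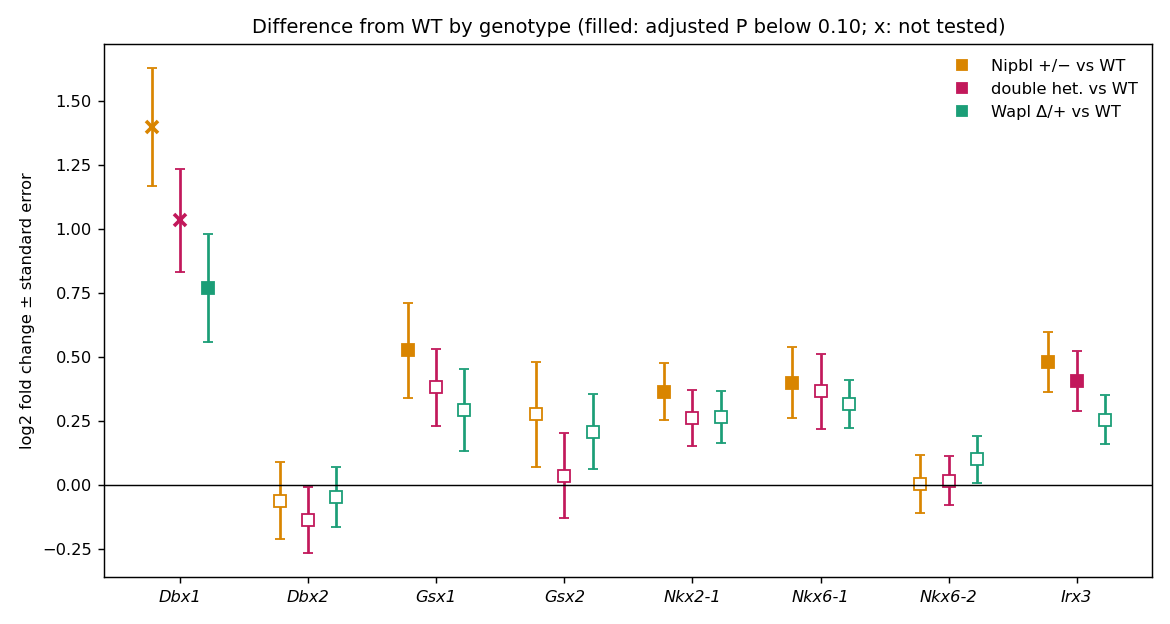
Log2 fold change against WT (y axis) of the 8 genes (x axis) in Nipbl+/- brains, double heterozygotes and WaplΔ/+ brains, with standard errors as bars. Filled squares have an adjusted P below 0.10, open squares do not, and crosses mark the 2 values of Dbx1 that are given without a test. The value of Dbx1 in Nipbl+/- brains is 1.40, and the next highest of the other genes, for Gsx1, is 0.53.

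Of the 7 genes other than Dbx1, then, Irx3, Nkx2-1, Nkx6-1 and Gsx1 were called higher in Nipbl+/- brains and none was called lower. Of all genes tested, 4.25% were called higher and 6.96% lower in that comparison. These shares include many genes of low count. With filterByExpr, a stricter filter on counts, 1788 of 20621 genes were called higher, against 1297 of 30552 here. With Dbx1 included, the median log2 fold change of the 8 genes was 0.38, against -0.01 over all genes. Irx3 and Gsx1 also had all Nipbl+/- libraries above all WT libraries, as did 9.08% of all genes. In double heterozygotes 1 of the 7 was called higher (Irx3) and none lower, against 0.812% and 2.46% of all genes, and the median over the 8 was 0.31. In WaplΔ/+ brains none of the 7 was called, against 0.769% of all genes called higher and 1.45% lower, and the median over the 8 was 0.26. There Nkx2-1 was called with a term for mt-Nd3 (0.36, edgeR adjusted P = 0.0859). With a replicate block Nkx2-1 (0.32, adjusted P = 0.0491), Nkx6-1 (0.33, adjusted P = 0.0928) and Irx3 (0.30, adjusted P = 0.0402) were called. That block called 1991 of all genes in WaplΔ/+ brains, against 677 without it. The labels do not say what replicate numbers stand for, so these calls show only how the setting matters. The 3 comparisons with WT share their WT libraries and are not independent of each other.

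The calls for these 4 genes in Nipbl+/- brains were lost without 1 library. Nipbl+/- replicate 1 was the highest of its group for 6 of the 8 genes, all but Dbx2 and Nkx6-1. Without it none of the 7 other genes was called. The log2 fold change of Irx3 was then 0.30 (edgeR adjusted P = 0.164), that of Nkx2-1 0.24 (adjusted P = 0.330), that of Nkx6-1 0.35 (adjusted P = 0.296) and that of Gsx1 0.33 (adjusted P = 0.490), and that of Dbx1 fell to 0.96. The number of genes called among all tested went from 3422 to 1828. The call for Irx3 held in each of the 7 other fits that left out a library, those for Gsx1 and Nkx2-1 in 4 of the 8 fits and that for Nkx6-1 in 1 of the 8, without Nipbl+/- replicate 2.

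**Figure D3:**
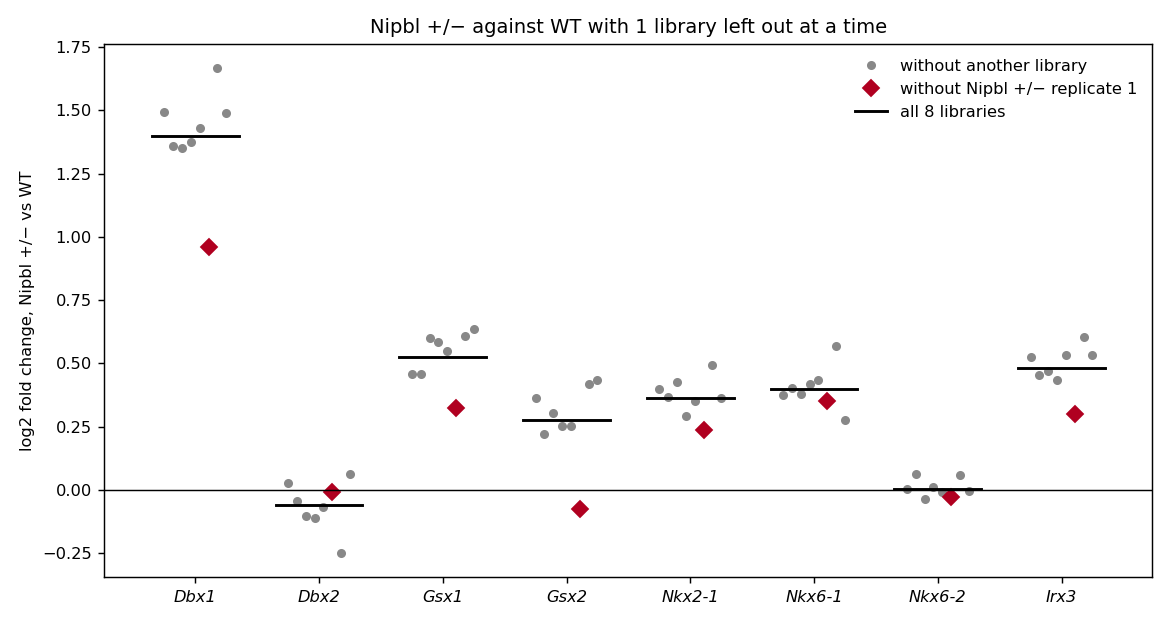
Log2 fold change of the 8 genes (x axis) in Nipbl+/- against WT brains (y axis) with 1 of the 8 libraries left out at a time. Lines give the value with all libraries, diamonds the value without Nipbl+/- replicate 1 and circles the value without any other library. Without replicate 1 the value of Dbx1 goes from 1.40 to 0.96, that of Irx3 from 0.48 to 0.30 and that of Gsx2 from 0.28 to -0.07.

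Other libraries moved the members as well. Among the double heterozygotes, replicate 6 was the highest for 5 of the 8 genes and replicate 5 the lowest for 5. Without double-heterozygote replicate 5, Gsx1 (log2 fold change 0.45, edgeR adjusted P = 0.0924), Nkx2-1 (0.34, adjusted P = 0.0362) and Nkx6-1 (0.45, adjusted P = 0.0489) were called higher beside Irx3. The call for Irx3 in double heterozygotes was lost in 7 of 11 such fits, namely without WT replicate 1, 2, 3 or 4 or double-heterozygote replicate 1, 4 or 6, with adjusted P between 0.134 and 0.232. In WaplΔ/+ brains, Nkx6-1 was called without WaplΔ/+ replicate 2 (0.34, edgeR adjusted P = 0.0599). With DESeq2 the call for Gsx1 in Nipbl+/- brains was lost (0.53, adjusted P = 0.118). Restricted to libraries of low mt-Nd3, the Nipbl+/- comparison kept the call for Irx3 (0.49, edgeR adjusted P = 0.0578) and lost those for Gsx1 (0.64, adjusted P = 0.140), Nkx6-1 (0.47, adjusted P = 0.148) and Nkx2-1 (0.25, adjusted P = 0.272). That fit leaves out WT replicates 4 and 5, and it called 1881 of all genes against 3422.

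The mutant groups were also compared with each other. Between double heterozygotes and Nipbl+/- brains none of the 8 genes was called, where 0.00655% of all genes were. The log2 difference of Dbx1 was -0.38 (SE 0.275), and it was 0.06 without Nipbl+/- replicate 1. For Irx3 it was -0.09 (95% interval -0.41 to 0.24) and for Gsx1 -0.15 (95% interval -0.52 to 0.21). Between double heterozygotes and WaplΔ/+ brains none was called either, where 1.02% of all genes were, and the log2 difference of Dbx1 was 0.26 (SE 0.221), that of Irx3 0.15 (95% interval -0.09 to 0.39). By group mean, Dbx1, Gsx1, Nkx6-1 and Irx3 were ordered Nipbl+/-, double heterozygote, WaplΔ/+, WT from high to low, but none of the steps among the mutant groups that were tested passed the threshold. The first step also depended on Nipbl+/- replicate 1. Without it the log2 difference of double heterozygotes from Nipbl+/- brains was 0.06 for Dbx1, 0.045 for Gsx1, 0.0014 for Nkx6-1 and 0.095 for Irx3.

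The interaction of the genotypes, which is the difference between what the Wapl deletion adds in Nipbl+/- and in Nipbl+/+ brains, was negative for all 8 genes, although Dbx2 had 0.14 at low mt-Nd3 and 0.069 with a replicate block. This sign was not particular to them. The interaction was above 0 for 14095 of the 30552 genes tested. Of the lists described below, it was above 0 for 3 of 32 other domain factors, 1 of 24 derived neuron genes and 2 of 16 progenitor markers, but for 17 of 21 Hox genes. For Dbx1 the interaction was -1.17 on the log2 scale (SE 0.378), given without a test. For the other 7 genes it ran from -0.49 for Gsx2 to -0.07 for Dbx2, with adjusted P between 0.324 and 0.930 from edgeR. No gene of all those tested was called by edgeR for this term (0%), 4221 had an unadjusted P below 0.05, and DESeq2 called 793 genes and gave none of the members an adjusted P, since its filter set genes of their mean aside.

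Whether the genes move together can be asked within a genotype, which the choice of Dbx1 by its group means did not use. Each gene was taken as its log2 normalized count less the mean of its group, and the 21 libraries were permuted within groups (two-sided permutation test, 100000 resamples, adjusted over the 7 pairs). Irx3 followed Dbx1 most closely, with a Pearson's r of 0.89 (permutation P = 1e-05, the smallest these permutations can give, and adjusted P = 7e-05) and a Spearman's rho of 0.87 (permutation P = 0.0001). Nkx2-1 had an r of 0.82 (permutation P = 7e-05, adjusted P = 0.000245) and a rho of 0.75 (permutation P = 0.00059). Gsx2, which was not called in any comparison of groups, had an r of 0.74 (permutation P = 0.0016, adjusted P = 0.00373) and a rho of 0.71 (permutation P = 0.00353).

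The pooled values did not hold in the same way in each genotype. For Irx3 r was 0.76 in WT, 0.87 in WaplΔ/+, 0.99 in Nipbl+/- and 0.94 in double heterozygotes, and for Gsx2 it was 0.54, 0.85, 0.89 and 0.60. For Nkx2-1 it was -0.04 in WT and 0.89, 0.98 and 0.94 in the mutant groups, so the 5 WT libraries did not show the relation. In WT, r was also below 0 for Gsx1 (-0.35) and Nkx6-1 (-0.17), against 0.85, 0.87 and 0.69 and 0.70, 0.67 and 0.68 in the mutant groups. These values within a genotype rest on 3 to 7 libraries and are given as a description, without a test.

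Gsx1 had an r with Dbx1 of 0.64 (permutation P = 0.00471, adjusted P = 0.00824) and a rho of 0.57 (permutation P = 0.0121). Nkx6-1 had an r of 0.59 (permutation P = 0.0201, adjusted P = 0.0281) and a rho of 0.54 (permutation P = 0.0425). These P values compare with permuted libraries and not with other genes. Among 17302 genes ranked by r with Dbx1 in log2 CPM less the group means, Irx3 was at 19, Nkx2-1 at 202 and Gsx2 at 549. Gsx1 was at 1332 and Nkx6-1 at 1807, so many genes outside the set followed Dbx1 more closely. Dbx2 had a pooled r of -0.46 (permutation P = 0.0772, adjusted P = 0.0901) and a rho of -0.49 (permutation P = 0.0537), past the threshold of 0.10 but lost in 10 of the 21 sets without 1 library. In WT alone its r was 0.67, opposite to -0.63 in WaplΔ/+, -0.60 in Nipbl+/- and -0.49 in double heterozygotes. Nkx6-2 showed no relation, with an r of 0.06 (permutation P = 0.814, and the same after adjustment) and a rho of 0.09 (permutation P = 0.701). Without the 2 libraries farthest from the median of Dbx1, which were WaplΔ/+ replicate 5 and Nipbl+/- replicate 1, r was 0.85 for Irx3, 0.81 for Nkx2-1, 0.67 for Gsx2, 0.48 for Gsx1, 0.57 for Nkx6-1, -0.45 for Dbx2 and 0.19 for Nkx6-2.

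**Figure D4:**
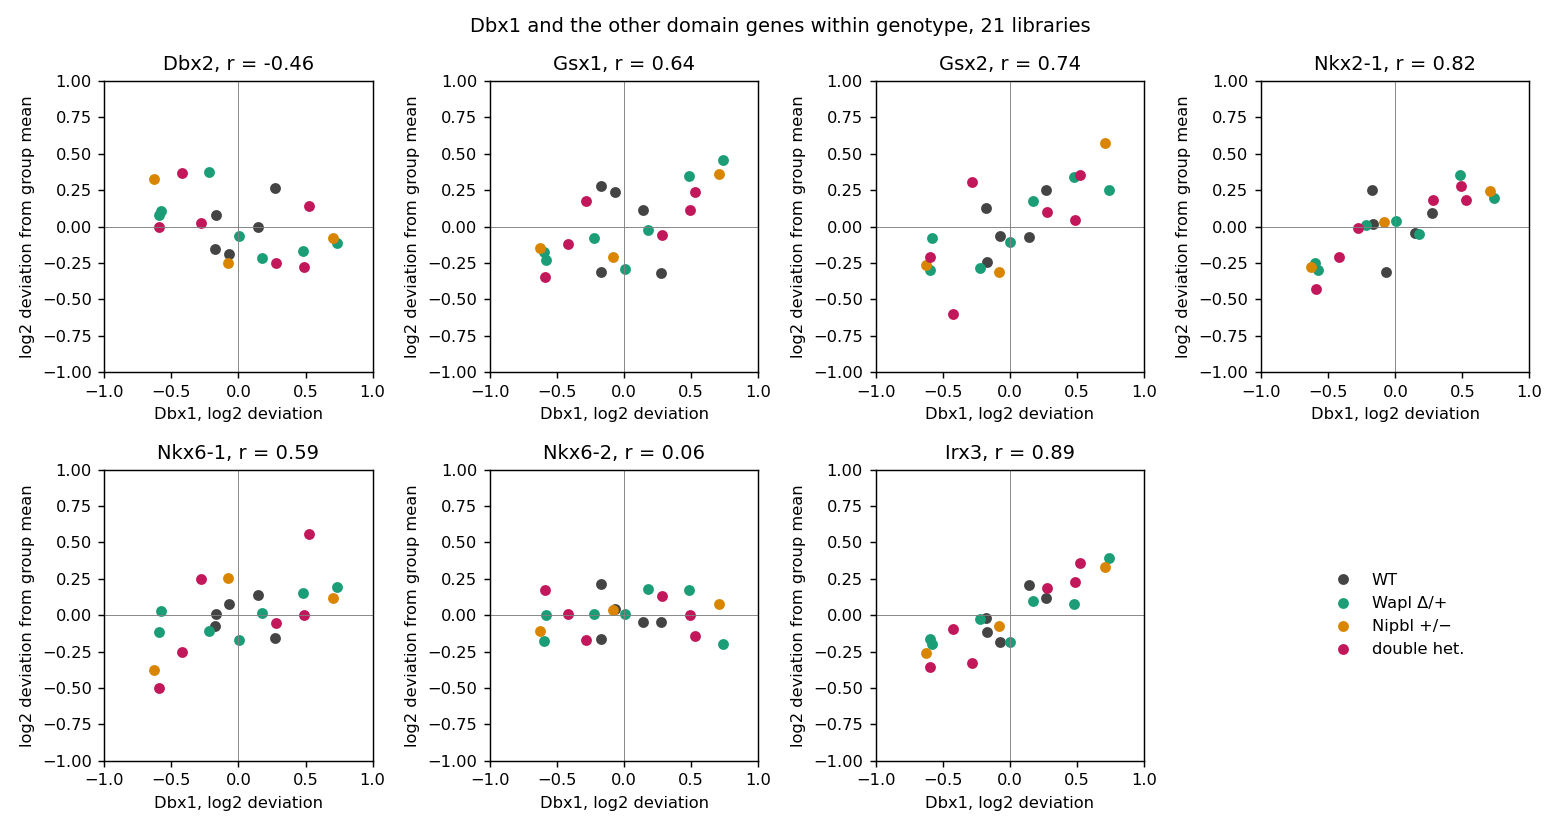
Log2 deviation from the mean of its genotype for Dbx1 (x axis) and each of the other 7 genes (y axis, 1 panel each), with 1 point per library coloured by genotype and Pearson's r over the 21 libraries. Points for Irx3 (r = 0.89) and Nkx2-1 (r = 0.82) rise from lower left to upper right, those for Nkx6-2 (r = 0.06) are flat, and those for Dbx2 (r = -0.46) tend downwards, though not in WT (r = 0.67).

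Markers of other regions of the brain moved in the same libraries. The summed level of 11 midbrain and thalamus markers was between 359 and 396 CPM in WT libraries, between 416 and 491 in Nipbl+/-, between 373 and 462 in WaplΔ/+ and between 369 and 492.6 in double heterozygotes. It was highest in Nipbl+/- replicate 1, WaplΔ/+ replicate 1 and double-heterozygote replicate 1, whose Dbx1 counts of 153, 86.1 and 103 were the first, the second and the second of their groups. In the Nipbl+/- comparison 5 of the 11 were called higher and 1 lower, where 4.25% and 6.96% of all genes were. The same shares apply to the other lists below in that comparison. Among the 11, Gata3 (0.40) and Gata2 (0.38), factors of GABAergic neurons, had the largest rises, and Slc6a3 (-0.53), the dopamine transporter, fell. The sum of 10 telencephalic neuron markers was between 1226 and 1307 CPM in WT and between 1230 and 1284 in Nipbl+/- libraries. Of the 10, 1 was called higher, Fezf2 (0.22), and 2 lower, with Foxp1 (-0.23) among them. The part of tissue composition in the values of the 8 genes was not tested.

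The Hox genes, the highest of which were Hoxb5 and Hoxa5, had no call among 21 tested in Nipbl+/- brains, and Hoxc8 and Hoxc9 were too low to test. Without Nipbl+/- replicate 1, 3 of the 21 were called higher, where 5.98% of all genes were called in either direction. Sums of the Hox list were between 81.8 and 133 CPM in WT libraries, and at 33.3, 103 and 138 CPM in the 3 Nipbl+/- libraries. Thus the Nipbl+/- library with the most Dbx1 had the fewest Hox reads, which did not hold in the other mutant groups. Double-heterozygote replicate 6 was the highest of its group both for Dbx1 (106) and for the Hox sum (169 CPM). WaplΔ/+ replicate 5, the highest of its group for Dbx1 (103), had a Hox sum of 126 CPM, in a group that ran from 93.4 to 129 CPM. Of 15 hypothalamus markers, Fezf1 (0.39), Otp (0.31) and Sox14 (0.26) were called higher and Avp (-0.88), the gene for vasopressin, lower, and their sum was between 43.5 and 57.7 CPM in WT and between 46.1 and 56.3 in Nipbl+/- libraries.

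Markers of ventricular zone progenitors, the cell class in which domain genes are mainly on, summed to between 1835 and 1907 CPM in WT libraries and to 2017, 1741 and 1866 in the Nipbl+/- libraries. Nipbl+/- replicate 1 was thus above and replicate 2 below the WT range, as the highest and lowest for Dbx1 in their group. Of 16 such markers, Notch1 (0.33), Eomes (0.33), Sox2 (0.22) and Nes (0.22) were called higher, and Slc1a3 (-0.37) and Fabp7 (-0.26), which are shared with astroglia, lower. Without replicate 1, 1 was higher and 2 lower, where 5.98% of all genes were called in either direction.

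The other factors that pattern progenitor domains, a list of 32 genes, were higher in Nipbl+/- brains for 13 genes and lower for 1. Over all genes 4.25% were called higher and 6.96% lower. The median log2 fold change of the list was 0.25. Among the listed factors that were called, the rises with the largest values were those of Neurog1 (1.23, edgeR adjusted P = 0.0412), a proneural factor, Prdm13 (0.67, adjusted P = 0.0414), which acts with dorsal interneuron factors, Neurog2 (0.67, adjusted P = 0.00286), another proneural factor, and Foxa1 (0.50, adjusted P = 0.0146), a floor plate factor. Neurog1 and Prdm13 had low levels, with WT means of 7.74 and 21.6 normalized counts, against 374 for Neurog2 and 91.8 for Foxa1. Olig1, a factor of oligodendrocyte precursors, was lower (-0.26, adjusted P = 0.00587). In double heterozygotes 3 of the 32 were higher, Neurog2 (0.56), Prdm12 (0.47) and Irx1 (0.22), and 3 lower, Olig1 (-0.31), Sp8 (-0.23) and Olig2 (-0.22), with a median of 0.17. In WaplΔ/+ brains 1 was higher, Pax7 (0.29), with a median of 0.14. Of these, Prdm12, Irx1, Sp8, Olig2 and Pax7 were named after their values were seen. Over all genes, 0.812% were called higher and 2.46% lower in double heterozygotes, and 0.769% and 1.45% in WaplΔ/+ brains. Without Nipbl+/- replicate 1, 7 of the list were higher and 1 lower, where 5.98% of all genes were called in either direction. Among libraries of low mt-Nd3 alone 4 of the list were higher and 1 lower in Nipbl+/- brains, against 6.16% of all genes called.

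Genes of neurons that arise from these domains, a list of 24, were higher in Nipbl+/- brains for 14 and lower for 1, with a median of 0.24. Over all genes 4.25% were called higher and 6.96% lower. Lhx5 (0.45, edgeR adjusted P = 0.00165), Lhx8 (0.43, adjusted P = 0.0164), Gata3 (0.40, adjusted P = 0.00224) and Gata2 (0.38, adjusted P = 0.0111) had the largest called rises of the list, all factors that specify classes of neurons. These 4 were also called higher in double heterozygotes, at 0.32, 0.31, 0.33 and 0.31, and not in WaplΔ/+ brains, at 0.20, 0.13, 0.21 and 0.17. Reln, the gene for the reelin protein that Cajal-Retzius neurons secrete, was lower in Nipbl+/- brains (-0.42, adjusted P = 0.00101) and in WaplΔ/+ brains (-0.33, adjusted P = 0.0381), and was not called in double heterozygotes (-0.26, adjusted P = 0.103). In each of these comparisons Reln was the only gene of the 24 below 0, and the other 23 were above 0. Among those 23 were Trp73 and Ebf3, named after their values were seen, at 0.046 and 0.10 in WaplΔ/+ brains without a call. Whether Cajal-Retzius neurons differed in number was not tested. Evx1 and Evx2, factors of the V0 neurons that the Dbx1 domain gives rise to, were named after their values were seen. Their log2 fold changes in Nipbl+/- brains were 0.25 (adjusted P = 0.542) and 0.21 (adjusted P = 0.407), without a call. Without Nipbl+/- replicate 1, 5 of the 24 genes were higher and 1 lower, where 5.98% of all genes were called in either direction.

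Signals that place the domains were listed as well. Of 16 genes of the hedgehog pathway, the ventral signal, those called higher in Nipbl+/- brains included Gli1 (0.26), Smo (0.21) and Sufu (0.15), and Hhip (-0.77, edgeR adjusted P = 0.000777), which binds and holds back the ligand, was lower. Hhip was also lower in double heterozygotes (-0.54, adjusted P = 0.00911). Of 14 genes of the retinoic acid pathway, those called higher included Stra6 (0.30), which takes up retinol, and Aldh1a1 (-0.60), Dhrs3 (-0.39) and Cyp26b1 (-0.19), which act in making retinoic acid, in turning its precursor back to retinol and in breaking it down, were lower. Of 14 genes of dorsal signals, Rspo3 (0.37), Lmx1b (0.29) and Lmx1a (0.25) were higher and Rspo2 (-0.69) lower. The medians of the 3 lists were 0.12, 0.01 and 0.05. Without Nipbl+/- replicate 1 the calls were 1 higher and 1 lower, 1 and 4, and 1 and 1, where 5.98% of all genes were called.

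**Figure D5:**
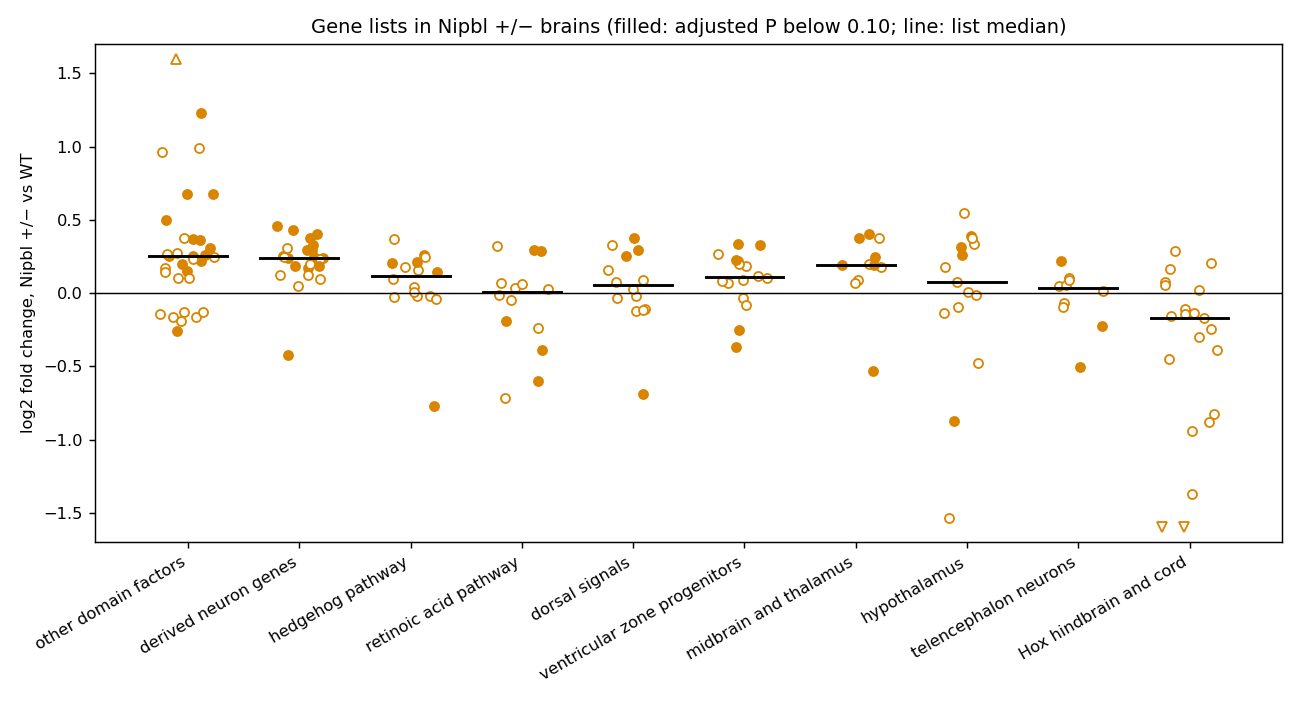
Log2 fold change in Nipbl+/- against WT brains (y axis) of the genes of 10 lists (x axis), with 1 point per gene and a line at the median of each list. Filled points have an adjusted P below 0.10, and triangles mark 3 genes beyond the axis limit of 1.6 in either direction. The medians of the other domain factors (0.25) and of the derived neuron genes (0.24) are above 0, and that of the Hox genes (-0.17) is below.

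Lists of tissues next to the brain were checked as well. Of 10 ependymal and choroid plexus genes, only Otx2 was called in Nipbl+/- brains (0.23), of 10 meninges genes only Slc6a13 (-0.32), and of 7 blood genes none, where Hbb-bs (-0.22) and Hba-a1 (-0.26) had the highest levels. Meninges genes were looked at in the other groups too. In WaplΔ/+ brains 10 of 10 had a log2 fold change above 0, with Col1a1 (0.62) and Col1a2 (0.38), collagen genes named after their values were seen, called higher, and in double heterozygotes 7 of 10 were above 0 with no call. The meninges sum was between 581 and 736 CPM in WT, at 862, 589 and 724 in Nipbl+/-, between 597 and 992 in WaplΔ/+ and between 517 and 1024 in double heterozygotes. Nipbl+/- replicate 1, the highest of its group for Dbx1, was thus also the highest of its group for meninges genes. WaplΔ/+ replicate 5 and double-heterozygote replicate 6, the highest of their groups for Dbx1, had meninges sums of 718 and 704 CPM, below the highest of their groups. The part of meninges in the values of the 8 genes was not tested. Pituitary genes summed to between 5.86 and 77.7 CPM in WT libraries, with WT replicate 2 at the top, and to between 7.46 and 8.69 CPM in Nipbl+/- libraries.

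The genes whose levels were most like that of Dbx1 were ranked over the 21 libraries among the 17302 genes that reached 1 CPM on average, as a description that includes the differences between genotypes. By log2 CPM they were Ina (r = 0.94), Zfp664 (r = 0.93), Irx3 (r = 0.93), Hmgn1 (r = 0.93) and Brwd1 (r = 0.93). After the group means were removed they were Sox21 (r = 0.93), Cbx2 (r = 0.91), Sox2 (r = 0.91), F2r (r = 0.91) and Lmnb1 (r = 0.91). Irx3 ranked 3 by the first measure and 19 by the second. Nkx2-1 ranked 198 and 202, Gsx1 554 and 1332, Nkx6-1 1078 and 1807, and Gsx2 2068 and 549. Dbx2 was in the lower end of both rankings, at 14060 and 14818.

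Of the genes around Dbx1 on chromosome 7, the annotation lists 12 within 500 kb, of which 6 were tested, and none of the 6 was called higher in Nipbl+/- brains. Nell1, which encodes a secreted protein and lies 338515 bases away, was called lower in Nipbl+/- brains (-0.41, edgeR adjusted P = 0.000257) and in double heterozygotes (-0.21, adjusted P = 0.0841), and had -0.00 in WaplΔ/+ brains. Nav2, the nearest tested gene, had -0.10 in Nipbl+/- brains, Htatip2 had 0.01, Prmt3 -0.02, Slc6a5 -0.33 and 9130015G15Rik 0.76 (SE 0.546), none of them called. Around the other 7 members, between 4 and 18 genes within 500 kb were tested for each. Over all genes tested, 4.25% were called higher and 6.96% lower in Nipbl+/- brains. Whether the counts around a member differ from these shares was not tested, and with so few genes each they cannot show it. In Nipbl+/- brains 2 of those around Gsx2 were lower, Pdgfra (-0.60) and Kit (-0.17), named after their values were seen, and none of those around Gsx1 or Nkx2-1 was called. Around Irx3, the non-coding Irx3os beside it was higher (0.39, edgeR adjusted P = 0.0520) and Rpgrip1l lower (-0.20). Around Nkx6-2, 3 of 18 were higher, Dpysl4 (0.21), Kndc1 (0.11) and Adam8 (0.30), and 1 was lower, Adgra1 (-0.19). Around Nkx6-1, 1 of 4 was higher, Gm20548 (0.15), and 1 lower, Wdfy3 (-0.19), and around Dbx2 1 of 6 was lower, Nell2 (-0.19). These neighbours too were named after their values were seen.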

How the data were processed

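Oligo-d(T)-purified RNA of 21 female E17.5 whole brains was sequenced as 101 bp paired-end reads. The authors deposited raw counts per gene. Per the submitters' processing notes, the tools were cutadapt 2.4, STAR 2.5.3a, featureCounts (Subread 1.6.4) and MultiQC 1.9, with mm10 (GRCm38.p6) as the genome. The annotation version, strandedness and handling of multi-mapping reads are not given in the sources used here. Groups came from the labels, which tie no library to an embryo or litter, so P values measure only the spread between these libraries. Total counts were 25682566 to 35818767.

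The test was edgeR 4.0.16 (R 4.3.3, TMM, quasi-likelihood), with each pair of groups fitted alone and the interaction on all libraries. A gene was tested if its normalized counts added up to 10 or more, and called at a Benjamini-Hochberg adjusted P under 0.10 over all tested genes. Scripts were tested on simulated data. Alternatives were DESeq2 1.42.0 (the authors' tool), its size factors in edgeR, no filter, filterByExpr, a threshold of 0.05, all 4 groups in 1 fit, a replicate block, an mt-Nd3 term, only the libraries with at most 20 mt-Nd3 counts, and leaving out each library. Only the libraries with over 20 such counts, and the list counts without Nipbl+/- replicate 1 or at low mt-Nd3, were chosen after seeing the data. Correlations used log2(normalized count + 1) in Python 3.11.15, with pseudocounts of 0.5 and 5 and DESeq2 size factors as alternatives. Coordinates are from a RefSeq table of GRCm38.p6.

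The members and gene lists were chosen with earlier results of these data known. Named genes were the members, the called genes of each list with the largest change in Nipbl+/- brains (at most 4 per direction, or the 2 of highest mean where none was called), the 5 genes most like Dbx1 by each measure, and the neighbours of Dbx1. Some genes of these lists are not reported here by name.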

Additional observations from a re-analysis of the deposited data

Results flagged for a closer look

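Single libraries stood far from the rest of their group in 8 of the 66 combinations of a group with a member or a list sum that were checked, where chance flags about 5% of them, and none was a level of the 8 members. Only WT, WaplΔ/+ and double-heterozygote libraries were checked. The 3 Nipbl+/- libraries were too few, so the check says nothing about Nipbl+/- replicate 1. The Hox sum of WT replicate 5 was 133 CPM, the hypothalamus sum of WT replicate 2 was 57.7 CPM and the meninges sum of WT replicate 3 was 736 CPM, each the highest in WT. The pituitary sum was 77.7 CPM in WT replicate 2, 10.3 CPM in WaplΔ/+ replicate 1 and 37.8 CPM in double-heterozygote replicate 6, each the highest of its group. The telencephalon sum of WaplΔ/+ replicate 7 was 1107 CPM and the blood sum of WaplΔ/+ replicate 6 was 346 CPM, each the lowest of its group.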

How the results depend on the processing

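The counts of members below take in Dbx1, which was chosen by its rise in Nipbl+/- brains and double heterozygotes and is no test there, so the other 7 genes are given beside them. In Nipbl+/- against WT brains the count was 5 (4 others), and 2 (Irx3 the 1 other) at a threshold of 0.05, with all groups in 1 fit, with an mt-Nd3 term and at low mt-Nd3. In WaplΔ/+ against WT the 1 call, of Dbx1, became 0 at 0.05, with all groups in 1 fit and within either mt-Nd3 set, and 2 with filterByExpr, which added Nkx6-1. With the mt-Nd3 term it was 1, but of Nkx2-1, and Dbx1 was not called. DESeq2 gave 0, but only 2 members had an adjusted P there. In double heterozygotes against WT the count of 2 (Irx3 the 1 other) became 1 at 0.05, with all groups in 1 fit and at low mt-Nd3, and 0 at high mt-Nd3, with 0 of the other 7 in each of these. The high mt-Nd3 fit set double-heterozygote replicates 5 and 6 against WT replicates 4 and 5 and called 1 gene of all tested. Few libraries enter the fits within an mt-Nd3 set, so a lost call there cannot show dependence on mt-Nd3.

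Replicate numbers did not pair the libraries throughout: same-numbered libraries of 2 groups correlated between -0.27 and 0.45 in their deviations, no pair of groups was over 0.1 throughout, and libraries correlated best with their own number in 2 of 5 (WT and WaplΔ/+), 0 of 3 (WT and Nipbl+/-), 0 of 5 (WT and double), 1 of 3 (WaplΔ/+ and Nipbl+/-), 2 of 6 (WaplΔ/+ and double) and 1 of 3 (Nipbl+/- and double). Replicate 1 of the mutant groups did go together, with an r of 0.45 (WaplΔ/+ and Nipbl+/-), 0.36 (WaplΔ/+ and double) and 0.35 (Nipbl+/- and double). With WT replicate 1 these libraries had -0.15 (WaplΔ/+), 0.0074 (Nipbl+/-) and 0.067 (double). What they share was not tested. With the replicate block, members called were 2 in Nipbl+/- (Irx3 the 1 other), 4 in WaplΔ/+ (Dbx1, Nkx2-1, Nkx6-1 and Irx3) and 1 in double heterozygotes (0 others), and genes called 1893, 1991 and 534, and 59 between double heterozygotes and Nipbl+/-. With the block Nkx6-2 had -0.0011 in Nipbl+/- and -0.059 between double heterozygotes and Nipbl+/-, Gsx2 -0.039 in double heterozygotes, and Dbx2 0.069 for the interaction.

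Genes called in Nipbl+/- numbered 1652 with all groups in 1 fit and 1881 at low mt-Nd3. In WaplΔ/+ they numbered 1449 with DESeq2, 181 at 0.05, 7 with all groups in 1 fit, 47 at low and 278 at high mt-Nd3, and 305 with the mt-Nd3 term. In double heterozygotes they numbered 547 at 0.05, 602 with all groups in 1 fit and 1 at high mt-Nd3. Between double heterozygotes and Nipbl+/- they numbered 5 with DESeq2 and 1 at 0.05, at low mt-Nd3 and with the term. Between double heterozygotes and WaplΔ/+ they numbered 631 with DESeq2, 171 at 0.05, 576 with all groups in 1 fit, 24 at low mt-Nd3 and 162 with the term. For the interaction DESeq2 called 793.

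Signs turned for small values. Dbx2 had 0.11 in WaplΔ/+ and 0.027 in double heterozygotes at high mt-Nd3, and at low mt-Nd3 0.016 between double heterozygotes and WaplΔ/+ and 0.14 for the interaction. Gsx2 had -0.053 in double heterozygotes at low mt-Nd3, and Nkx2-1 0.00099 between double heterozygotes and WaplΔ/+ with filterByExpr. Nkx6-2 had -0.0041 in Nipbl+/- at low mt-Nd3 and -0.0040 with the term, and between double heterozygotes and Nipbl+/- -0.013 with all groups in 1 fit, -0.012 at low mt-Nd3, -0.0014 with filterByExpr, -0.0050 with no filter and -0.0087 with the term.

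Leaving out 1 library gave 1 to 5 members called in Nipbl+/-, 0 to 2 in WaplΔ/+, 1 to 5 in double heterozygotes (0 to 4 of the other 7 in both the first and the last) and 0 to 1 for the interaction, where the 1 is Dbx1 and no test, and 1828 to 4788, 9 to 1534, 454 to 2505 and 0 to 945 genes. Genes called between double heterozygotes and Nipbl+/- ran from 1 to 2, and between double heterozygotes and WaplΔ/+ from 163 to 449. The within-group r with Dbx1 ran from -0.54 to -0.35 for Dbx2 and from -0.061 to 0.25 for Nkx6-2. Log2 fold changes ran from -0.25 to 0.064 (Dbx2), -0.074 to 0.44 (Gsx2) and -0.036 to 0.064 (Nkx6-2) in Nipbl+/-, from -0.12 to 0.032 (Dbx2) in WaplΔ/+, and from -0.043 to 0.13 (Gsx2) and -0.023 to 0.069 (Nkx6-2) in double heterozygotes. Between double heterozygotes and Nipbl+/- they ran from -0.64 to 0.059 (Dbx1), -0.20 to 0.10 (Dbx2), -0.26 to 0.045 (Gsx1), -0.40 to 0.10 (Gsx2), -0.24 to 0.012 (Nkx2-1), -0.21 to 0.085 (Nkx6-1), -0.053 to 0.032 (Nkx6-2) and -0.21 to 0.095 (Irx3). Between double heterozygotes and WaplΔ/+ they ran from -0.060 to 0.076 (Nkx2-1) and -0.081 to 0.14 (Nkx6-1), and for the interaction from -0.16 to 0.15 (Dbx2). The cause of these changes was not tested. Fewer libraries enter each such fit, and with 3 Nipbl+/- libraries and Dbx1 near 40 counts in WT the precision is limited.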
